A study of Bos taurus with 28 samples.

Results

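CAPN1 and CAST form a protease and inhibitor pair. They were taken as the count rows of the Ensembl bovine genes ENSBTAG00000010230 (CAPN1) and ENSBTAG00000000874 (CAST), 2 of 24616 gene identifiers, and were followed in muscle together with the ratio of their counts within each sample. CAPN1 encodes the large, catalytic subunit of calpain 1 (mu-calpain), a calcium-activated cysteine protease that works with a small regulatory subunit and cuts proteins of the cytoskeleton and the sarcomere. CAST encodes calpastatin, the endogenous inhibitor that binds calpains when calcium is raised. In skeletal muscle the pair is known for its part in the turnover of myofibrillar proteins and, in cattle, for the tenderisation of meat after slaughter. In the RefSeq table of assembly ARS-UCD2.0, CAPN1 lies between SPDYC and SLC22A20 and overlaps the microRNA gene MIR2407, and CAST lies between PCSK1 and ERAP1 with no overlapping gene. Positions and sequences of the pair on UMD3.1, the build of the counts, were not analysed here.

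Muscle RNA came from 12 male steers, crossbreds of Aberdeen Angus and Holstein Friesian, and each steer was sampled on day 99 and on day 131, which gave 24 samples in 4 groups of 6. Control steers on day 99 had eaten 7 kg of grass silage a day beside concentrates given ad libitum, and restricted steers on day 99 had eaten 0.5 kg of concentrate a day beside silage given ad libitum. By day 131 both diets had been replaced for 32 days by the same mixed ration of 80% grass silage and 20% concentrate. Control and restricted steers on day 131 were different animals on the same ration and differed by design in their earlier diet. This design asks whether the pair differed at the end of energy restriction and during the compensatory growth that follows it.

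Sample totals ran from 3342314 to 24376288 counts. The counts of CAPN1 ran from 1393 to 7745 a sample and those of CAST from 73 to 1549. Levels are given as CPM, counts brought to a common library size after scaling by TMM (trimmed mean of M values), and 3 samples had TMM factors over 1.3. These were control steer 3 on day 99, restricted steer 5 on day 99 and control steer 5 on day 131, and the differences between diets and days and the correlations over all samples are also given without them. CPM is not divided by transcript length, so the 2 genes' levels are not compared with each other, and the ratio is read only between samples. In whole muscle, fewer cells of a type and less RNA per cell cannot be told apart. The files do not pair identifiers with gene names, so other calpains, other proteolysis genes and cell type markers of muscle were not analysed here.

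CAPN1 was abundant in all 4 groups, and its mean was higher on day 131 than on day 99 under both diets. Control steers on day 99 held 121 CPM in the lowest sample, a median of 378 and 597 in the highest. Restricted steers on day 99 held 159 CPM in the lowest sample, a median of 353 and 616 in the highest. At day 131 the protease transcript lay between 156 and 879 CPM in control steers, with a median of 526. In restricted steers on day 131 it lay between 349.6 and 622 CPM, with a median of 572. All 4 groups overlapped, and the restricted steers on day 131 were the group with the narrowest range, in which 5 of 6 samples held 524 CPM or more. Group means, in falling order, were 543 ± 104 CPM in restricted steers on day 131, 527 ± 233 in control steers on day 131, 372 ± 181 in control steers on day 99 and 368 ± 159 in restricted steers on day 99 (SD, n = 6 each). Neighbours in this order differed by less than the SD of either group.

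The means of the inhibitor CAST were higher on day 99 than on day 131 under both diets. In control steers on day 99 it ranged from 27.2 to 65.7 CPM with a median of 48.3. At day 131 the same steers ranged from 15.7 to 62.4 CPM with a median of 26.6. The restricted steers on day 99 fell into 2 sets, with steers 2, 3 and 5 at 60.4, 70.3 and 66.7 CPM and steers 1, 4 and 6 at 18.0, 25.1 and 19.7 CPM. No restricted sample of day 99 lay between 25.1 and 60.4 CPM. At day 131 the restricted steers lay between 18.6 and 38.9 CPM with a median of 29.6, so the high values of day 99 were not seen in them. Group means of CAST were 46.2 ± 15.5 CPM in control steers on day 99, 43.4 ± 24.9 in restricted steers on day 99, 33.3 ± 19.1 in control steers on day 131 and 29.7 ± 7.52 in restricted steers on day 131 (SD, n = 6 each). For calpastatin too all 4 groups overlapped and neighbours in the order differed by less than either SD.

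**Figure D1:**
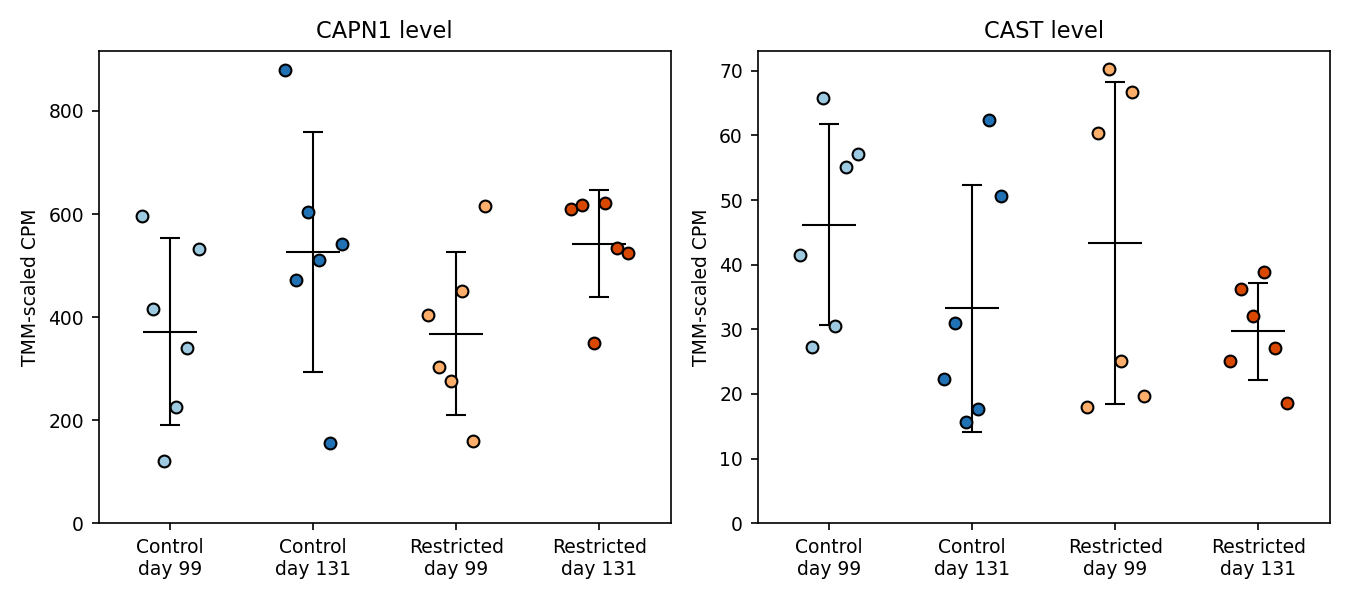
CAPN1 (left) and CAST (right) in TMM-scaled CPM, 1 point per steer, with the mean (long bar) and SD (error bar) of the 6 steers in each group. CAPN1 means are 372 and 368 CPM on day 99 and 527 and 543 CPM on day 131, CAST means are 46.2 and 43.4 CPM on day 99 and 33.3 and 29.7 CPM on day 131, and the groups overlap in both genes.

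Neither gene passed edgeR's quasi-likelihood test between the diets. At day 99 the difference of restricted from control steers was -0.01 ± 0.35 on the log2 scale for CAPN1 and -0.08 ± 0.36 for CAST (SE, edgeR adjusted p = 1.00 for both, n = 6 per group). The test called 0% of the 11288 genes there, and 4.31% had an unadjusted p under 0.05. At day 131, on the shared ration, the difference was 0.04 ± 0.35 for CAPN1 and -0.17 ± 0.36 for CAST (SE, edgeR adjusted p = 1.00 for both), with 0% called and an unadjusted p under 0.05 in 1.74%. The direction of the CAPN1 difference changed with the scaling: with library totals only it was -0.10 on day 99 and -0.06 on day 131, and with median-ratio size factors it was 0.01 and 0.00. The standard errors were larger than each of these 4 differences. Without the 3 samples of high TMM factor the differences were -0.02 and -0.07 on day 99 and -0.19 and 0.08 on day 131.

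Between the days, CAPN1 was higher and CAST lower on day 131 in both diets by about the same amounts, and none of these 4 differences passed the test. The fit behind the test did not pair the 2 samples of a steer. In restricted steers CAPN1 was higher on day 131 by 0.56 ± 0.35 on the log2 scale (SE, edgeR unadjusted p = 0.121, adjusted p = 0.351). The protease transcript was higher in 5 of 6 restricted steers. CAST differed by -0.55 ± 0.36 in the same steers (SE, edgeR unadjusted p = 0.141, adjusted p = 0.375) and was lower in 4 of 6. This comparison called 0.381% of genes, and 18.7% had an unadjusted p under 0.05. In control steers CAPN1 was higher by 0.50 ± 0.35 (SE, edgeR unadjusted p = 0.162, adjusted p = 0.722) and was higher in 5 of 6. CAST differed by -0.47 ± 0.36 there (SE, edgeR unadjusted p = 0.209, adjusted p = 0.722) and was lower in 4 of 6 control steers, where edgeR called 0% of genes and 3.89% were under an unadjusted p of 0.05. The median log2 fold change of all tested genes was -0.07 in restricted and -0.10 in control steers.

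The day difference of either gene was not shown to depend on diet. The diet by day interaction was 0.06 ± 0.50 for CAPN1 and -0.09 ± 0.51 for CAST (SE, edgeR adjusted p = 1.00 for both), where 0% of genes were called and 2.51% had an unadjusted p under 0.05. In restricted steers the log2 difference of CAPN1 was 0.41 without steer 5 on day 99 and 0.80 without steer 6 on day 99, and that of CAST was -0.36 without steer 3 on day 99. In control steers the CAPN1 difference was 0.32 without steer 1 on day 131, and the CAST difference was -0.26 without steer 3 on day 99 and -0.76 without steer 5 on day 131. Without all 3 samples of high TMM factor, CAPN1 differed between the days by 0.38 in restricted and 0.55 in control steers, and CAST by -0.44 and -0.60.

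The ratio of CAPN1 to CAST counts joins these values and does not depend on library size or scaling. Over the 24 samples it ran from 1.84 CAPN1 counts per CAST count to 39.5, a 21.4-fold range. The lowest was control steer 3 on day 99, with 2119 CAPN1 and 1151 CAST counts (ratio 1.84, exact 95% binomial interval 1.71 to 1.98). The highest was control steer 1 on day 131, with 3277 CAPN1 and 83 CAST counts (ratio 39.5, interval 31.8 to 49.7). These intervals cover counting error only and are narrow beside the distance between the samples.

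Technical libraries of the same sample gave nearly the same ratio. Control steer 1 on day 99 gave 13.9 and 14.8 in 2 technical libraries, and control steer 2 on day 131 gave 15.4 and 15.0. Restricted steer 2 on day 99 gave 4.90, 4.99 and 5.11 in 3. Within these 3 samples the largest ratio exceeded the smallest by at most 1.06-fold, and the SD of the log2 ratio was 0.041 among technical libraries (4 degrees of freedom) against 1.24 among steers of a group (20 degrees of freedom). The technical libraries of a sample share its biopsy, so their SD holds no difference between biopsies, and the spread among steers may hold such differences. Their titles give only a replicate number. Whether a library was prepared again or only sequenced again cannot be told, so their SD may hold no difference in library preparation either. Across genes holding 10 counts or more, technical libraries of a sample were closer to each other than sampling noise alone would give (chi-square divided by its degrees of freedom, 0.525 to 0.807), so each set was summed and counted as 1 sample.

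In control steers the ratio on day 99 was 14.4, 15.3, 1.84, 7.40, 6.17 and 9.31 in steers 1 to 6. At day 131 it was 39.5, 15.2, 38.4, 28.9, 2.50 and 10.7 in the same order. The ratio was higher on day 131 in 4 of 6, most of all in steer 3 (20.9-fold), and steer 5 had 0.405 times its day 99 value. In restricted steers the ratio on day 99 was 22.4, 5.00, 3.92, 17.9, 2.38 and 31.3 in steers 1 to 6, and on day 131 it was 24.3, 17.0, 10.9, 16, 19.6 and 28.2. It was higher in 4 of 6 restricted steers, by 3.40-fold in steer 2, 2.78-fold in steer 3, 8.24-fold in steer 5 and 1.08-fold in steer 1. The restricted steers that were low on day 99 were those with high CAST, and steers 1, 4 and 6, which were already at 17.9 or above, stayed within 1.08- to 0.891-fold of that value.

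**Figure D2:**
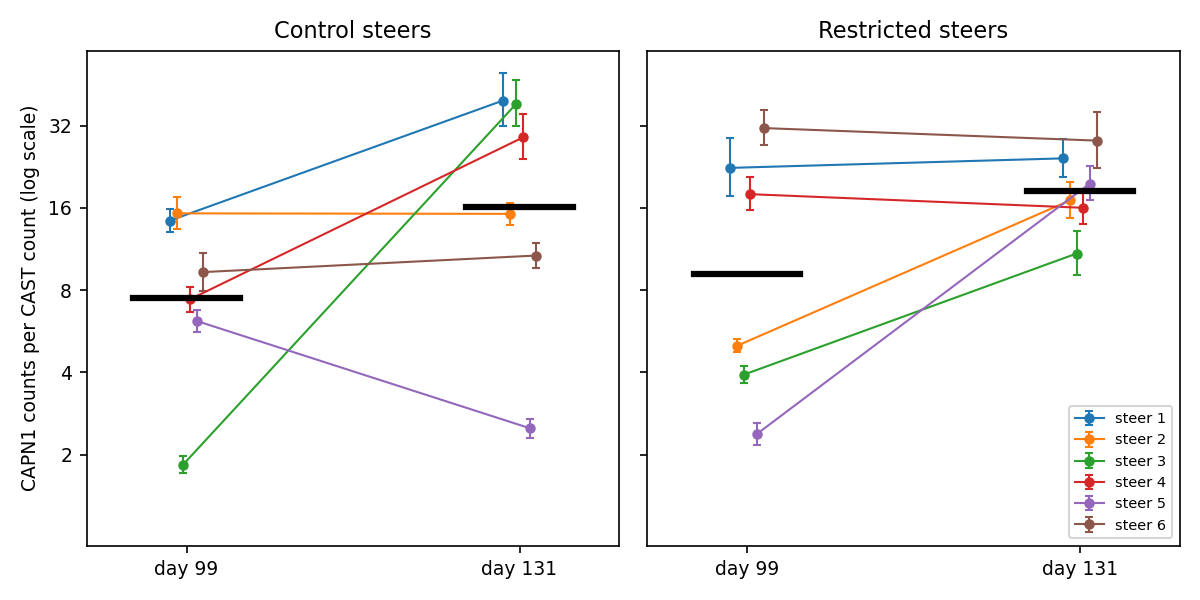
CAPN1 counts per CAST count (log scale) on day 99 and day 131, 1 line per steer with exact 95% binomial intervals, control steers left and restricted steers right. Black bars are geometric means, 7.46 and 16.2 in control and 9.15 and 18.5 in restricted steers, and the restricted steers span 2.38 to 31.3 on day 99 and 10.9 to 28.2 on day 131.

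The geometric mean of the ratio was 7.46 in control steers on day 99, 9.15 in restricted steers on day 99, 16.2 in control steers on day 131 and 18.5 in restricted steers on day 131. On the log2 scale these means were 2.90 ± 1.11, 3.19 ± 1.54, 4.02 ± 1.52 and 4.21 ± 0.48 (SD, n = 6 each). The SD was smallest in restricted steers on day 131, a difference in spread that was not tested. Neighbours in this order differed by less than the SD of either group.

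None of the 5 comparisons of the ratio passed its test. Restricted steers exceeded control steers by 0.30 on day 99 (exact 95% permutation interval -1.57 to 2.06, two-sided exact permutation p = 0.701) and by 0.19 on day 131 (interval -1.13 to 1.68, p = 0.818) on the log2 scale. In restricted steers the ratio was higher on day 131 by 1.01 ± 0.53 (SE, n = 6 steers), a 2.02-fold difference, with an interval of -0.16 to 3.04 (exact sign-flip permutation p = 0.219). In control steers it was higher by 1.12 ± 0.81 (SE, n = 6 steers), a 2.17-fold difference, with an interval of -1.30 to 4.38 (exact sign-flip permutation p = 0.188). The smallest p that 6 pairs allow is 0.0312. The difference between the diets in this change was -0.10 (interval -2.26 to 2.01, exact permutation p = 0.885). Adjusted over the 5 tests, the smallest p was 0.547.

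Single steers carried much of the day difference. Without steer 3 the difference in control steers was 0.46 (exact sign-flip permutation p = 0.375, n = 5), and without steer 5 it was 1.60 (exact p = 0.125). Without steer 5 the difference in restricted steers was 0.61 (exact sign-flip permutation p = 0.438, n = 5). Without the steers' samples with a TMM factor over 1.3 it was 0.91 in control and 0.61 in restricted steers, and the difference between diets on day 131 was -0.35 (exact permutation p = 0.403), which is the value without control steer 5 alone of that day. On day 99 the difference between diets was -0.11 without control steer 3 and 0.28 without that sample and restricted steer 5. The difference between the diets in the day change was -0.30 without the samples of high TMM factor. These samples also held the 3 lowest ratios of all, so leaving them out removes the low end of the ratio itself.

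The ratio moved with the overall makeup of the libraries. The 3 samples with the lowest ratios (1.84 to 2.50) were the 3 with the highest TMM factors (1.37 to 1.69, against 0.786 to 1.13 in the other 21). They were also the 3 with the smallest share of counts in the 10 most abundant genes (10.2% to 11.4%, against 12.4% to 18.4%). Their scores on the first principal component of all tested genes, which held 49.1% of the variance, were 92.5 to 102, against -76.3 to 57.1 in the other 21. Further up the order the match was partial. Of the 5 samples with the lowest ratios, 4 were among the 5 with the highest scores, 3 among the 5 with the highest TMM factors and 3 among the 5 with the smallest shares. Of the 7 lowest ratios, these numbers were 7, 7 and 5, and of the 10 lowest they were 10, 8 and 5. The numbers of samples compared were chosen after the order was seen. CAPN1 and CAST are 2 of the 11288 genes behind the component. These values are a description of the samples, and the part of library makeup in the ratio was not tested. In depth, the 3 samples held 7714867 to 10373423 counts and the other 21 held 3342314 to 24376288, and the part of depth in the ratio was not tested.

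**Figure D3:**
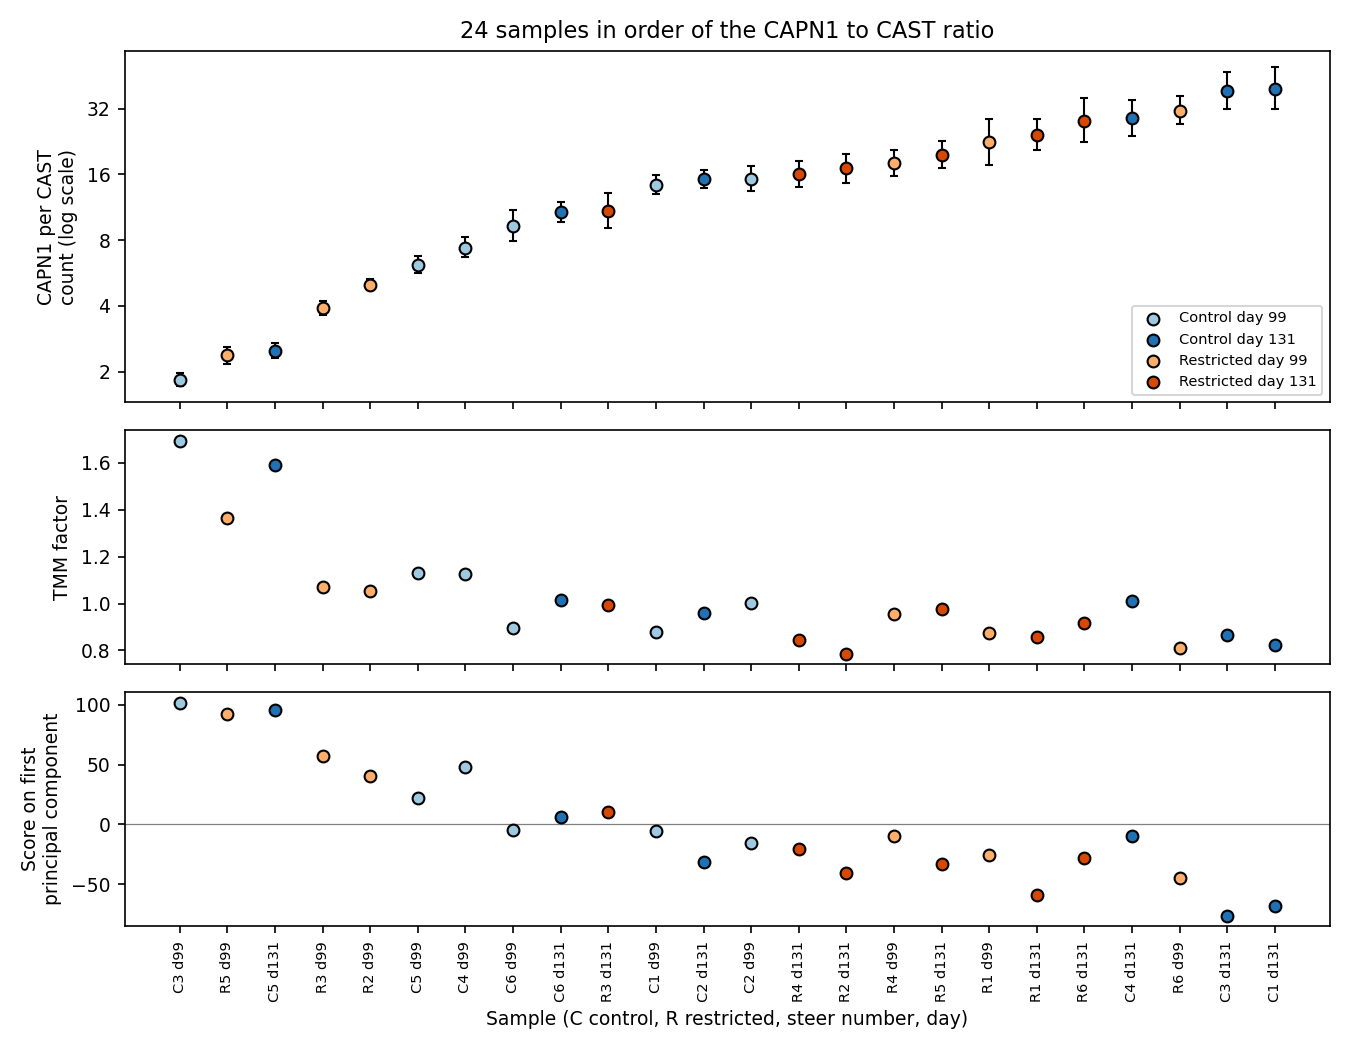
The 24 samples in order of the CAPN1 to CAST count ratio (top, log scale, exact 95% binomial intervals), with the TMM factor (middle) and the score on the first principal component (bottom) of the same samples, coloured by group. The 3 lowest ratios, 1.84 to 2.50, belong to the 3 highest TMM factors, 1.37 to 1.69, and the 10 lowest ratios to the 10 highest scores.

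CAPN1 and CAST were negatively correlated over all samples together, without a relation that passed its test within a group after adjustment. Over all 24 samples the Pearson correlation of their log2 CPM was -0.613, a description, since the samples share steers and library makeup. Of 11101 other genes with a mean of at least 1 CPM, 28.9% had a lower correlation with CAPN1 than CAST had. Likewise 15.9% had a lower correlation with CAST than CAPN1 had, so on this scale a negative value of this size is not particular to the pair. With library totals, also chosen after seeing the data, r was -0.706. There 31.6% of genes had a lower correlation with CAPN1 than CAST had. Only 2.32% had a lower correlation with CAST than CAPN1 had, so for CAST this reading depends on the scaling. Without the 3 samples of high TMM factor the correlation of TMM-scaled values was -0.399 over 21 samples, an alternative chosen after seeing the data. Within groups of 6 it was -0.257 in control steers on day 99 (exact permutation p = 0.619), -0.685 in control steers on day 131 (exact permutation p = 0.0917) and 0.0767 in restricted steers on day 131 (exact permutation p = 0.897). Spearman's rho was -0.257, -0.600 and 0.600 (exact permutation p = 0.658, 0.242 and 0.242). Adjusted over 4 groups, Pearson's p was 0.826, 0.183 and 0.897 and Spearman's p 0.658, 0.322 and 0.322. Without the 2 samples farthest from the median of CAPN1, r was 0.0121, -0.337 and 0.691, so the value on day 131 in control steers rested on those samples. In restricted steers on day 99 Pearson's r was -0.83 (exact permutation p = 0.0486, adjusted p = 0.183) and Spearman's rho was -0.771 (exact permutation p = 0.103, adjusted p = 0.322), and r was -0.919 without the 2 farthest samples. With library totals r was -0.847 there (exact permutation p = 0.0264, adjusted p = 0.106). CAST fell into the 2 sets of 3 described above in these steers, so this r largely sets one set against the other, and the relation within a set cannot be tested.

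**Figure D4:**
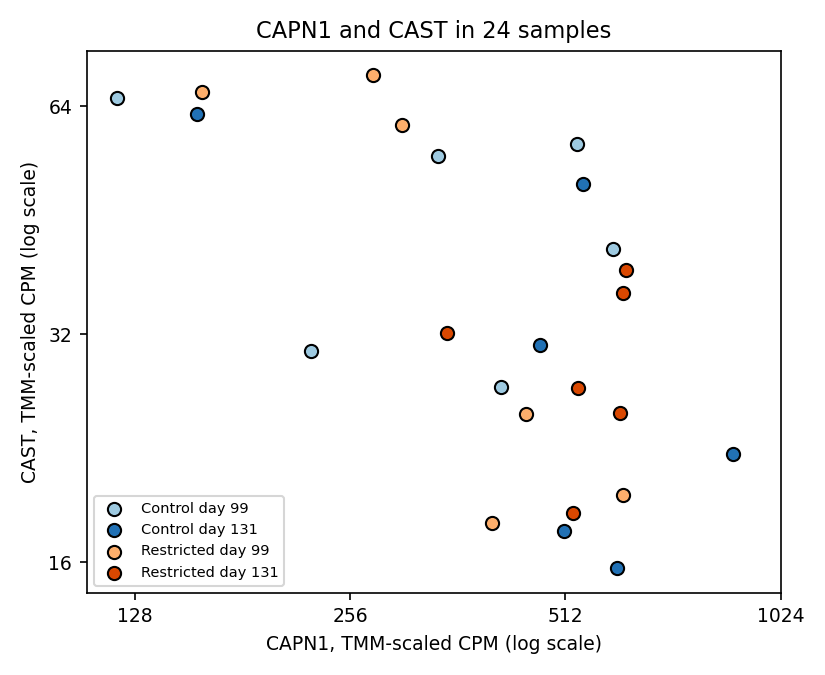
CAST against CAPN1, both in TMM-scaled CPM on log scales, 1 point per sample, coloured by group. The 3 samples with CAPN1 of 159 CPM or less hold CAST between 62.4 and 66.7 CPM, and the Pearson correlation of log2 CPM over the 24 samples is -0.613.

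A steer's ratio on day 99 did not carry over detectably to day 131. Deviations of the log2 ratio from the group means on the 2 days were compared over 12 steers. Pearson's r was 0.0924 (permutation p = 0.789), and Spearman's rho was 0.126 with a permutation p of 0.699. Without the 2 steers farthest from the median on day 99, r was 0.476, and without the steers that had a TMM factor over 1.3 it was 0.492, an alternative chosen after seeing the data. For CAPN1 alone r was 0.106 (permutation p = 0.746) and for CAST alone 0.279 (permutation p = 0.376). The adjusted p was 0.789 for each of the 3 measures.

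The spread of both genes within groups was above that of the median gene. The within-group SD of log2 CPM was 0.71 for CAPN1 and 0.69 for CAST, against a median of 0.60 over the 11288 genes tested. In SD, CAPN1 lay above 68.4% of these genes and CAST above 66.1%. In mean level, at 452 CPM and 38.1 CPM, they lay above 97.0% and 71.3% of them, on a scale not divided by length.

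Many genes followed CAPN1 closely across the 24 samples. Of 11101 other genes with a mean of at least 1 CPM, 1875 had a Pearson correlation with CAPN1 over 0.8 and 853 had one under -0.8. The genes most like CAPN1 were ENSBTAG00000015499 (r = 0.987, 62.6 to 454 CPM) and ENSBTAG00000020551 (r = 0.986, 74.9 to 479.6 CPM). Fewer followed CAST, with 611 over 0.8 and 33 under -0.8. Those most like it were ENSBTAG00000006323 (r = 0.95, 10.7 to 44.8 CPM) and ENSBTAG00000015909 (r = 0.945, 10.96 to 61.9 CPM). CAST itself stood at rank 7893 of 11101 in likeness to CAPN1, and CAPN1 at rank 9340 of 11101 in likeness to CAST. These ranks were 7592 and 10843 with library totals. With library totals in place of TMM-scaled values the same identifiers were the most alike, and the numbers over 0.8 were 589 for CAPN1 and 1892 for CAST, so these counts depend on the scaling. Without the 3 samples of high TMM factor the numbers over 0.8 were 917 and 309, and other identifiers were the most alike, with ENSBTAG00000021657 (r = 0.977) nearest to CAPN1 and ENSBTAG00000002493 (r = 0.951) nearest to CAST. Both alternatives were chosen after seeing the data. Such numbers for a typical tested gene were not analysed here, so those of CAPN1 and CAST are not read as particular to them.

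Samples were sequenced in 4 runs, read from the dates in the file names. By the run given to each sample, no steer had both of its days in the same run. By these runs, differences between days within a run compare different steers, and changes within a steer cross runs. The day difference of the ratio was not of the same size in all runs. In restricted steers the log2 ratio was higher on day 131 by 0.90 in run 2 and 2.44 in run 3 and differed by -0.12 in run 4. Run 1 held no restricted sample of day 131. A sample with summed technical libraries was given the run of its first library, and the samples of run 1 were all of this kind. The runs of their further libraries were not compared. In control steers the difference was 0.08 in run 1, 1.85 in run 2, 2.61 in run 3 and -0.13 in run 4. Within runs 1 to 4, restricted steers differed from control steers on day 99 by -1.52, -0.54, 0.22 and 1.35, and within runs 2 to 4 on day 131 by -1.50, 0.05 and 1.36. CAPN1 alone differed between the days in runs 2, 3 and 4 by 0.87, 1.05 and 0.11 on the log2 scale in restricted steers, and in runs 1 to 4 by -0.34, 0.98, 1.77 and -0.91 in control steers. CAST alone differed by -0.03, -1.38 and 0.23 in runs 2, 3 and 4 of restricted steers and by -0.42, -0.86, -0.84 and -0.78 in runs 1 to 4 of control steers. Between the diets, CAPN1 differed by -0.98, -0.27, 0.44 and -0.01 in runs 1 to 4 on day 99 and by -0.38, -0.27 and 1.02 in runs 2 to 4 on day 131. CAST differed by 0.54, 0.27, 0.22 and -1.35 in runs 1 to 4 on day 99 and by 1.11, -0.32 and -0.34 in runs 2 to 4 on day 131. Each run held at most 2 samples of a group, so these are values with no test.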

How the data were processed

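Each of 28 deposited files holds whole-number read counts by Ensembl gene for 1 library of poly(A)-selected paired-end mRNA sequencing per the labels' protocols. Per the submitters' processing notes, the tools were CASAVA 1.4, Bowtie, SAMtools and HTSeq and the build UMD3.1. The sources used here give no strand setting, annotation or filter, so reads shared with overlapping or similar genes cannot be told apart. The 7 technical libraries of 3 samples were summed, which left 24 samples.

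Genes were filtered with filterByExpr (minimum count 10), which kept 11288 including both members. Library sizes were scaled by TMM, and 4 groups were fitted together in edgeR 4.0.16 (R 4.3.3) with the quasi-likelihood test and Benjamini-Hochberg adjustment over all genes at 0.05. SEs were derived from the fold change and the F statistic (their quotient, F under a square root), and the prior count for log2 CPM was 2. The log2 ratio of counts was tested by exact permutation between diets and by exact sign flips within steers between days (numpy 2.4.6). Correlation p-values came from all pairings, or from 100000 permutations for 12 steers. The fits were tested on simulated data. Alternatives were DESeq2 1.42.0, limma 3.58.1 and other scalings, filters and sample sets.

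The labels name the same steer on both days, which pairs the days. The correlation, over 11102 genes, of a steer's 2 deviations from its group means ran from -0.610 to 0.530. It had a median of 0.158 and was over 0.1 in 8 of 12 steers. With limma voom the consensus correlation within a steer was 0.047, so the pairing rests on the labels. The members and lists were chosen with earlier results of these data known. The rule for named genes took the members and the 2 genes most like each. Its gene lists and cell type markers were not run, because the reference table gave a symbol for 0 of 24616 identifiers, and the names CAPN1 and CAST are those given with the chosen identifiers.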

Additional observations from a re-analysis of the deposited data

Results flagged for a closer look

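CAPN1 in restricted steer 3 on day 131 was at 349.6 CPM, far below the other 5 restricted steers of that day, the nearest of which held 524 CPM. This was 1 of 12 sets of 6 samples examined (CAPN1, CAST and their log2 ratio in each group), and chance alone marks about 5% of such sets. The ratio of that sample, 10.9, was the lowest of its group. Without it the log2 difference of CAPN1 between the days in restricted steers was 0.66 (edgeR adjusted p = 0.268).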

How the results depend on the processing

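No call was gained or lost for CAPN1, CAST or their ratio under the alternatives run. The day differences of CAPN1, of CAST and of the ratio kept their sign in both diets under all of them. With the steer as a replicate block, CAPN1 differed between the days by 0.65 in restricted steers and 0.51 in control steers and CAST by -0.37 and -0.57. In that edgeR fit the unadjusted p for CAPN1 was 0.0713 in restricted and 0.163 in control steers (adjusted p = 0.305 and 0.705). For CAST the unadjusted edgeR p was 0.266 and 0.0878 (adjusted p = 0.502 and 0.705), and the block changed no call. The ratio between days was paired by steer, and with no replicate block its p was 0.160 in restricted and 0.175 in control steers (exact permutation tests).

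The small differences between diets and the interaction changed sign. For CAPN1 on day 99 the value was 0.0078 with median-ratio size factors, 0.023 with no filter, 0.045 with limma voom, 0.045 with voom and the steer as a random replicate block, and 0.0076 with DESeq2. For CAPN1 on day 131 it was -0.0014 with median-ratio factors, -0.065 with library totals, -0.020 with no filter, -0.0028 with 2 groups only, -0.0016 with DESeq2 and -0.19 without TMM factors over 1.3. CAST on day 131 was 0.084 without those samples. The interaction of CAPN1 was -0.0091 with median-ratio factors, -0.043 with no filter, -0.0092 with DESeq2 and -0.17 without those samples. The interaction of CAST was 0.21 with the steer block, 0.17 with limma voom, 0.17 with the random block and 0.16 without those samples. For the ratio, the interaction was 2.56 percentage points of CAPN1 in the pair, and the day 131 difference was -0.35 without those samples and -0.20 as a difference of medians. The correlation in restricted steers on day 131 was -0.292 with library totals, an alternative chosen after seeing the data. The cause was not tested.

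With each sample left out in turn, the difference between diets ranged from -0.22 to 0.16 (CAPN1) and -0.27 to 0.11 (CAST) on day 99, and from -0.19 to 0.26 and -0.31 to 0.092 on day 131. The interaction ranged from -0.20 to 0.28 (CAPN1) and -0.35 to 0.15 (CAST). The ratio ranged from -0.11 to 0.68 on day 99, -0.35 to 0.45 on day 131 and -0.59 to 0.55 for the interaction. Library totals moved the median log2 fold change of all genes from -0.07 to -0.26 for the days in restricted steers. Genes called numbered 20, 3, 239 and 2 with DESeq2 (restricted against control on day 99 and 131, days in restricted steers, interaction), against 0, 0, 43 and 0 with edgeR. Median-ratio factors gave 2 and voom 1 for the first of these. For the days in restricted steers voom called 65, voom with the random block 86, a fit of 2 groups only 92 and the fit without TMM factors over 1.3 called 66, and leaving out 1 sample gave 21 to 153 genes.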
